A study of Homo sapiens with 18 samples.

Results

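The genes described here encode the enzymes of glycolysis and of the pentose phosphate pathway, with the kinases that set the flow into and out of glycolysis. The set has 31 genes, chosen by name from the pathway and not by their measured values, among 23621 genes in the expression table. Of these, 28 reached at least 1 FPKM in at least 3 libraries and entered the tests, as did 12771 genes in all. ENO2, PFKFB1 and PDK4 stayed below that level. All values come from GIST-T1, an established human cell line of gastrointestinal stromal tumour, a sarcoma that depends on the receptor tyrosine kinase KIT. The cells were grown in DMEM with fetal bovine serum and measured in 6 groups of 3 libraries: DMSO (the solvent control), cells given imatinib over 6 h or over 24 h, cells given JQ1 over the same times, and cells given both drugs over 24 h. Imatinib blocks the kinase activity of KIT, and JQ1 displaces BET proteins, which read acetylated histones and help start transcription, from chromatin. Each drug was used at 500 nM, and the labels give no time for the DMSO cultures. The study asked, by its title, how enhancer domains and BET proteins act on KIT in this tumour.

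Glycolysis turns glucose into pyruvate in the cytosol. Hexokinases trap glucose as glucose 6-phosphate, phosphofructokinase commits the carbon to the pathway, and the lower steps from aldolase to enolase recover the energy. The PFKFB enzymes make and break fructose 2,6-bisphosphate, the main activator of phosphofructokinase. Lactate dehydrogenase converts pyruvate to lactate, while the PDK kinases switch off pyruvate dehydrogenase and so hold pyruvate out of the mitochondria. The pentose phosphate pathway branches off at glucose 6-phosphate and supplies NADPH and ribose. Tumour cells often take up much glucose, and uptake of labelled glucose is used in imaging of gastrointestinal stromal tumours.

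RNA was taken from counted cells and received ERCC spike-in transcripts of known amount, and the deposited values are FPKM (fragments per kilobase of transcript, scaled to the fragments of the library), a level per length that may be compared between genes. No source used here says how the values were scaled. That they follow the spike-ins is inferred from the summed spike-in level, which lay between 6505 and 6948 FPKM in the 18 libraries while the sum over genes differed more. On that reading, a value lower across all genes stands for less RNA per counted cell. In a bulk measurement, fewer cells that carry a transcript and less of it in each cell cannot be told apart. The labels do not say that the libraries of a group came from separate cultures, so each p-value measures the spread between these libraries. Depth is unknown. Levels are given below as library values in the order of the replicate numbers, with 1 library of the JQ1 24 h group first, called unnumbered because its number in the table is in none of the group's sample titles, or as mean ± SD (n = 3). A log2 change is the difference between group means of log2(FPKM + 1) in a limma fit over all 12771 tested genes. A gene rose or fell where the Benjamini-Hochberg adjusted p was below 0.05 and the log2 change was at least 1 in size. Because most genes moved down together, each change is read beside the median of all tested genes, and a rescaling that takes that common shift out (each library divided by its median ratio to the mean library) is given where it matters.

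Among the marker lists 9 of 9 markers of gastrointestinal stromal tumour, KIT among them, were at 1 FPKM or more in DMSO, and 0 of 5 endothelial and at most 2 of 7 leukocyte markers were. Of 5 epithelial markers 3 reached that level in DMSO, with a sum of 416 to 663 FPKM that was almost all KRT18 (538 ± 123 FPKM). The other 2 were KRT8 (6.00 ± 1.04 FPKM) and EPCAM (2.84 ± 0.627 FPKM), while CDH1 and KRT19 were under 1 FPKM. Of 4 smooth muscle markers ACTA2 alone did, with a sum of 124 to 192 FPKM. At 24 h of imatinib these sums were 44.03 to 46.5 FPKM and 32.5 to 33.9 FPKM. The sum of the 9 tumour markers was lower there as well, at 1042 to 1118 FPKM against 4729 to 7239 FPKM in DMSO. With both drugs it was 251 to 445 FPKM, and 8 of the 9 reached 1 FPKM, all but PRKCQ. The summed level of 5 neural and glial markers, of which TUBB3 alone passed 1 FPKM, lay at 147 to 238 FPKM in DMSO, 352 to 404 FPKM at 6 h of JQ1 and 9.56 to 10.3 FPKM at 24 h of imatinib. The part of these differences in the results below was not tested. Within 3 groups the libraries differed in overall scale. DMSO library 3 was the highest of its group for 28 of 28 tested members and DMSO library 1 the lowest for 27 of 28. The combination had its highest value in library 2 for 28 of 28 members and its lowest in library 1 for 27 of 28. In the JQ1 24 h group library 3 was highest and the unnumbered library lowest for 28 of 28. Together the 31 genes made up 1.40% ± 0.00670 of the summed FPKM of all genes in DMSO (without the MIR1244 rows), 1.38% ± 0.0331 at 6 h of imatinib, 1.60% ± 0.0137 at 6 h of JQ1, 0.784% ± 0.0458 at 24 h of imatinib, 1.31% ± 0.0719 at 24 h of JQ1 and 0.975% ± 0.0730 with both drugs.

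The sequences before start sites of HK2, LDHA and PDK2 are shown as examples. These isozymes moved apart from the others of their step in the results below, and each stretch was picked for holding the E-box CACGTG. That site is read by MYC family factors among others, and its core ACGTG also by HIF factors. Other isozymes moved apart too: ALDOC and PFKFB3 have a window with CACGTG and are not shown, and PFKP has none in 4 windows. Whether the motif bears on the changes was not tested. The sequences are from RefSeq on GRCh38.p14, whereas the expression table was built on hg19. Capitals mark CACGTG, which reads the same on both strands. The HK2 stretch lies at chr2:74834920-74835169 on the plus strand, inside the annotated gene before an alternative start. The LDHA stretch lies at chr11:18394313-18394387 on the plus strand. The PDK2 stretch lies at chr17:50095101-50095274 on the plus strand, between exons of the annotated gene.
HK2: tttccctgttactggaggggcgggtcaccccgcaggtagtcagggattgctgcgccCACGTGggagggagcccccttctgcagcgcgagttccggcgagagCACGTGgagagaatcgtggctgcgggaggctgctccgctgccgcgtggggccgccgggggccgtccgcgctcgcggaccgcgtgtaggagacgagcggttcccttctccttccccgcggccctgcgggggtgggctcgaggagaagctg
LDHA: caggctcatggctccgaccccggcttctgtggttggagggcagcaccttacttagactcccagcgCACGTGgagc
PDK2: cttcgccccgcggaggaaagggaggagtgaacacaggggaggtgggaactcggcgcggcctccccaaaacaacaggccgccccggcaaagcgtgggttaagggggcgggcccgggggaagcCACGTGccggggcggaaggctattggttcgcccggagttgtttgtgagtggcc
The LDHA and PDK2 stretches end where the first annotated exon inside the window begins. They hold 75 and 174 of the 250 bases before the start, and the HK2 stretch is whole. The full windows of these stretches hold CACGTG at 2 places for HK2, at 194 and 149 bases before the start, at 2 places for LDHA, at 185 and 87 bases, and at 1 place for PDK2, at 129 bases. Each gene has windows at other starts too, and CACGTG occurred in 1 of 2 windows of HK2, 1 of 2 of LDHA and 1 of 3 of PDK2. The LDHA site at 87 bases and a further ACGTG at 73 bases lie beyond the letters shown. Over the 250 bases before each start, 30 of the 31 members had a window, with 58 windows in all. CACGTG occurred in 8 of these 58 windows (13.8%), which belong to 8 members, and in 6.34% of all 35116 promoter windows of the same length. The shorter core ACGTG, searched on both strands and contained in CACGTG, occurred in 22 of 58 member windows (37.9%) and in 18.5% of all windows. Windows of the same gene overlap and are not independent, and a match is a description of the letters only.

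Against DMSO, members of the set fell in every drug group on the deposited scale and 0 rose, though after the ratio rescaling 31 of the changes that passed on either scale had the other sign. After 6 h of imatinib 5 of 28 fell: the hexokinases HK1 and HK2, the phosphofructokinase PFKP, the enolase ENO1 and PFKFB3. After 6 h of JQ1 7 of 28 fell: HK1, HK2, PFKP, the muscle-type enolase ENO3, LDHA, PDK2 and the transketolase TKT. By 24 h 24 of 28 had fallen with imatinib, 24 of 28 with JQ1 and 28 of 28 with both. The members that did not pass at 24 h of imatinib were PFKFB2, PFKFB4, PDK2 and PGM1, and those at 24 h of JQ1 were ALDOC, PFKFB4, PDK3 and PGM1.

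These counts stood against a broad fall of the transcriptome. Among all tested genes 20.0% fell and 0.384% rose at 6 h of imatinib, 49.8% fell and 0.642% rose at 6 h of JQ1, 72.1% fell and 0.642% rose at 24 h of imatinib, 75.3% fell and 0.399% rose at 24 h of JQ1, and 86.0% fell and 0.235% rose with both drugs. The members' shares that fell, in the same order, were 17.9%, 25.0%, 85.7%, 85.7% and 100%, near or below the background at 6 h and above it at 24 h. The median log2 change of the members was -0.69 at 6 h of imatinib, where that of all genes was -0.69. At 6 h of JQ1 it was -0.89 against -1.0003. At 24 h of imatinib the members stood further down than the genes as a whole, at -1.98 against -1.503, with 19 of 28 below the all-gene median. The gap was smaller at 24 h of JQ1, -1.66 against -1.49, and for the combination the medians were -2.43 and -2.05. The 5 comparisons share the DMSO libraries.

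Counted by library values alone, PDK2 had every imatinib 6 h library above every DMSO library, a direction whose all-gene share is not given here. For 26 members every imatinib 6 h library was below every DMSO library, as for 78.8% of all genes. The same count was 27 at 6 h of JQ1 (all genes 91.4%), 26 at 24 h of imatinib (90.8%), 27 at 24 h of JQ1 (92.5%) and 28 with both drugs (94.4%). Separation of the groups was thus common to most genes. Leaving out DMSO library 3, the highest of its group, ended the call of ENO1 at 6 h of imatinib (log2 change -0.87). It also ended those of HK1 (-0.88), PFKP (-0.92), ENO3 (-0.96) and TKT (-0.91) at 6 h of JQ1. Leaving out DMSO library 1 raised the JQ1 6 h count from 7 to 16. All genes called at 6 h of JQ1 numbered 6438 with every library and 5092 to 7940 with a library left out. The all-gene share without DMSO library 1 is not given here, so the 16 is no result about the members.

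With the common shift taken out by the ratio rescaling, the members split. At 6 h of imatinib HK2 stayed lower (-1.80) and PDK2 became higher (1.08), against 2.08% of all genes falling and 1.22% rising. At 6 h of JQ1 0 members passed, where 2.57% of genes fell and 2.47% rose. At 24 h of imatinib 7 fell (HK2 -2.63, ENO1 -2.03, PFKP -1.42, ALDOA -1.36, PGAM1 -1.21, PGK1 -1.14 and TPI1 -1.02), and PDK2 (1.47) and PFKFB2 (1.004) rose. The background there was 8.72% falling and 8.80% rising. At 24 h of JQ1 HK2 (-1.47) and ENO1 (-1.09) fell and ALDOC (1.65) rose, with 6.47% and 5.25% of all genes doing so. With both drugs 6 fell (HK2 -2.05, ENO1 -1.90, PFKP -1.78, PGAM1 -1.29, GPI -1.23 and ALDOA -1.11) and ALDOC rose (1.37), against 10.1% and 9.17%. HK2 fell on the deposited scale and after either rescaling at both times of imatinib, at 24 h of JQ1 and with both drugs. Of the changes called on the deposited scale, in all 12 comparisons, 152 in number, 120 lost their call after the ratio rescaling, 92 with the sign kept and 28 with the other sign.

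**Figure D1:**
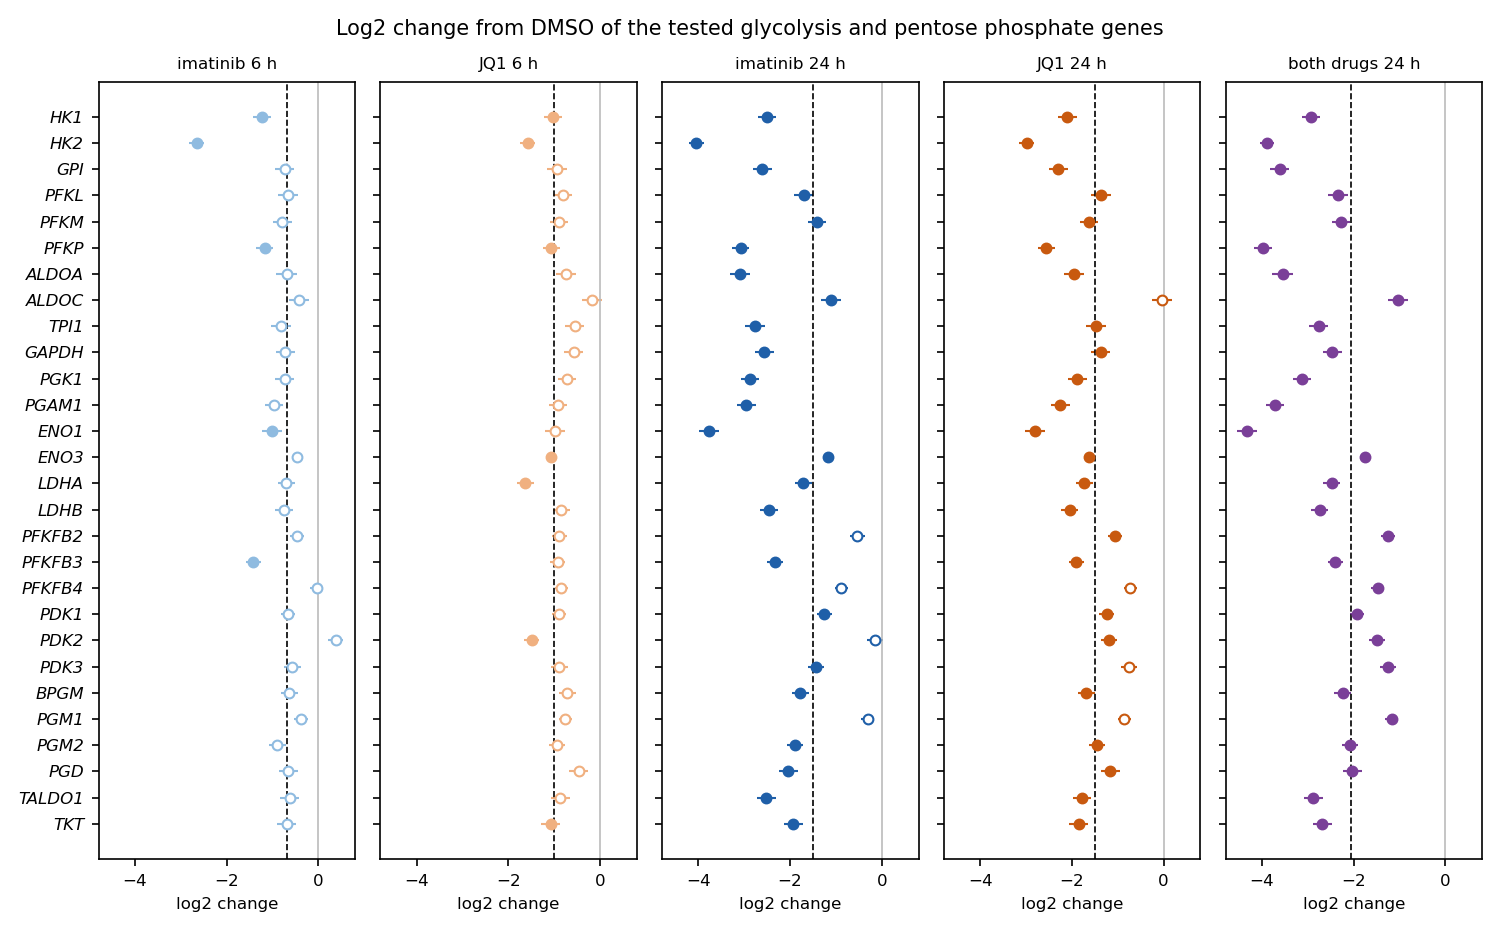
Log2 change of each of the 28 tested members from DMSO on the deposited scale, in a panel for each drug group, with bars of 1 standard error, filled points for members that passed and a dashed line at the median of all tested genes. HK2, ENO1 and PFKP lie far below the all-gene median at 24 h of imatinib (-4.04, -3.76 and -3.08 against -1.503), while PDK2 and PGM1 lie above it (-0.15 and -0.31).

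Of the hexokinases, HK2 fell further than HK1 in every drug group. HK2, the inducible hexokinase that binds mitochondria and is high in many tumours, had DMSO levels of 21.2, 26.5 and 30.5 FPKM. With imatinib its levels were 4.13, 2.85 and 2.93 FPKM at 6 h and 0.639, 0.643 and 0.594 FPKM at 24 h, and with both drugs 0.599, 1.01 and 0.848 FPKM. JQ1 left 8.91, 7.56 and 7.46 FPKM at 6 h and 1.84, 2.26 and 3.16 FPKM at 24 h. All drug libraries lay below all DMSO libraries, those of imatinib below those of JQ1 at the same time, and by 24 h of imatinib the mean was 41.7-fold below DMSO. The log2 change was -2.65 (standard error 0.16, adjusted p = 1.28e-11) at 6 h of imatinib, the lowest of the 28 members, and -4.04 (adjusted p = 2.03e-15) at 24 h. For JQ1 it was -1.58 (adjusted p = 1.2e-08) at 6 h, where it was -0.49 and did not pass after the ratio rescaling, and -2.99 (adjusted p = 2.21e-13) at 24 h. Since the pseudocount of 1 is above some of these levels, the log2 change understates the ratio of FPKM values.

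HK1, the hexokinase that most tissues carry, was present at 129, 156 and 193 FPKM in DMSO. It fell to 67.8, 63.4 and 69.5 FPKM at 6 h and 27.4, 27.2 and 26.7 FPKM at 24 h of imatinib, with log2 changes of -1.22 and -2.497. JQ1 gave 75.2, 74.999 and 80.5 FPKM at 6 h and 30.2, 36.2 and 43.2 FPKM at 24 h (log2 changes -1.03 and -2.09), and both drugs 14.96, 29.1 and 18.1 FPKM. HK1 was thus lower in all drug libraries, but by a smaller ratio than HK2 in each group. After the ratio rescaling HK1 passed in no comparison with DMSO (0.11 at 6 h of JQ1, -0.78 and -0.41 at 24 h of imatinib and of JQ1). GPI, the isomerase that makes fructose 6-phosphate, went from 234 ± 58.5 FPKM in DMSO to 36.8 ± 0.889 FPKM at 24 h of imatinib, 46.2 ± 8.20 FPKM at 24 h of JQ1 and 18.5 ± 6.63 FPKM with both. It did not pass at 6 h of either drug (log2 changes -0.74 and -0.94).

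The phosphofructokinase subunits did not move alike. PFKP, the platelet-type subunit, had 52.4, 64.4 and 78.5 FPKM in DMSO. Its levels with imatinib were 27.6, 26.6 and 29.96 FPKM at 6 h and 6.88, 6.83 and 6.44 FPKM at 24 h. With JQ1 they were 29.7, 28.8 and 32.2 FPKM and then 8.18, 9.75 and 12.8 FPKM, and with both drugs 2.36, 4.69 and 2.78 FPKM. PFKP was among the 4 members with the lowest change at 24 h of imatinib (log2 change of -3.08, standard error 0.19, adjusted p = 1.78e-12) and fell by 3.97 on the log2 scale with both drugs. PFKL, the liver type, had a mean of 153 ± 38.2 FPKM in DMSO, 45.4 ± 1.92 FPKM at 24 h of imatinib, 58.3 ± 11.01 FPKM at 24 h of JQ1 and 30.3 ± 12.01 FPKM with both. PFKM, the muscle type, had 113 ± 22.2, 41.6 ± 0.468, 35.8 ± 5.60 and 23.2 ± 8.43 FPKM in the same groups. PFKL and PFKM also fell on the deposited scale at 24 h (log2 changes -1.71 and -1.41 for imatinib), close to the all-gene median of -1.503, and after the ratio rescaling both were above 0 in each 24 h group (0.014 and 0.31 for imatinib). The PFKP change at 6 h of JQ1 was 0.059 after it.

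From aldolase to enolase, the abundant enzymes of the lower pathway fell together at 24 h, with ALDOC apart. ALDOA, the main aldolase, had 2125, 2775 and 3408 FPKM in DMSO. Imatinib left 1678, 1695 and 1676 FPKM at 6 h and 342, 317 and 293 FPKM at 24 h. Levels with JQ1 were 1622, 1481 and 1805 FPKM at 6 h and 550.2, 717 and 865 FPKM at 24 h, and with both drugs 174, 349.9 and 204 FPKM. The 6 h change passed for neither drug (-0.69 and -0.74), while at 24 h ALDOA fell with imatinib (log2 change of -3.10, standard error 0.22, adjusted p = 1.61e-11) and with JQ1 (-1.96).

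ALDOC, the aldolase best known from brain, had 91.01, 123 and 144 FPKM in DMSO. It was at 88.9, 87.8 and 83.8 FPKM after 6 h and 55.2, 56.9 and 48.8 FPKM after 24 h of imatinib. With JQ1 it was at 109, 92.7 and 110.0 FPKM and 94.1, 114 and 138 FPKM, and with both drugs at 41.5, 85.1 and 51.1 FPKM. The JQ1 libraries overlapped those of DMSO at both times, and the log2 change at 24 h was -0.038 (adjusted p = 0.866). ALDOC fell at 24 h of imatinib (-1.12) and with both drugs (-1.04), but without DMSO library 3 these were -0.97 and -0.89 and no longer passed, and the combination's change did not pass without its library 1 (-0.82) or 3 (-0.97) either. All of its changes from DMSO were above 0 once the ratio rescaling was applied.

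TPI1, the triose phosphate isomerase, had 1389, 1773 and 2153 FPKM in DMSO. It was at 1014, 967 and 999 FPKM after 6 h and 265, 264 and 240.4 FPKM after 24 h of imatinib. With JQ1 TPI1 stood at 1225, 1073 and 1281 FPKM and 530.2, 626 and 741 FPKM, and with both drugs at 191, 384 and 231 FPKM. At 24 h every JQ1 library was above every imatinib library and below every DMSO library. GAPDH, which makes the first NADH of the pathway, was the most abundant member, with 6791 ± 1383 FPKM in DMSO, 1134 ± 83.5 FPKM at 24 h of imatinib, 2614 ± 469.8 FPKM at 24 h of JQ1 and 1268 ± 461 FPKM with both. PGK1, which makes the first ATP, had 697 ± 135, 92.9 ± 4.53, 188 ± 31.3 and 80.3 ± 24.7 FPKM in these groups. For PGAM1, the phosphoglycerate mutase, the means were 1005 ± 214, 127 ± 4.90, 209 ± 34.9 and 76.95 ± 26.03 FPKM. All 4 fell at 24 h in each drug group on the deposited scale (log2 changes -2.95 to -2.56 with imatinib), and for TPI1 and GAPDH at 24 h of JQ1 the direction flipped after rescaling (0.23 and 0.33). Pseudogenes bear the names of GAPDH (62), PGAM1 (13), LDHA (6), TPI1 (4) and ENO1 (4) in GENCODE 29, and how shared reads were assigned is not known.

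ENO1, the enolase of most tissues, had 1087, 1358 and 1615 FPKM in DMSO. With imatinib it had 668, 655 and 670.1 FPKM at 6 h and 102, 103 and 88.1 FPKM at 24 h. Under JQ1 the levels were 683, 611 and 739.7 FPKM and 152, 193 and 239 FPKM, and both drugs left 47.9, 98.4 and 60.7 FPKM. ENO1 was below DMSO in all drug libraries and lower at 24 h than at 6 h of each drug, with a mean 13.8-fold below DMSO at 24 h of imatinib, 6.96-fold at 24 h of JQ1 and 19.6-fold with both. Its log2 change was -3.76 (standard error 0.22, adjusted p = 6.9e-13) at 24 h of imatinib and -4.32 (adjusted p = 2.46e-14) with both drugs, the lowest of all members there. At 6 h of imatinib it passed narrowly (-1.01), and it did not without DMSO library 2, DMSO library 3 or imatinib library 2 (-0.995, -0.87 and -0.997). ENO3, the muscle enolase, was scarce: 2.79 ± 0.526 FPKM in DMSO, 0.671 ± 0.126 FPKM at 24 h of imatinib and 0.218 ± 0.0935 FPKM at 24 h of JQ1. With both drugs its libraries were between 0.0924 and 0.139 FPKM, near the lowest values of the table. The neuronal enolase ENO2 lay between 0.0917 and 0.179 FPKM in all 18 libraries.

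Lactate dehydrogenase consisted almost wholly of LDHB transcripts. LDHB, whose subunit is high in heart, had 2321, 2795 and 3204 FPKM in DMSO. With imatinib it had 1639, 1567 and 1709.9 FPKM at 6 h and 502, 523 and 474 FPKM at 24 h, with JQ1 1539.5, 1405 and 1671 FPKM and 586, 662 and 753 FPKM, and with both drugs 304, 571 and 400.3 FPKM. LDHA, the subunit high in muscle and in many tumours, had only 32.02, 38.97 and 46.2 FPKM in DMSO. Its levels were 23.4, 22.8 and 24.3 FPKM at 6 h and 10.3, 11.5 and 11.7 FPKM at 24 h of imatinib. JQ1 left 11.8, 10.4 and 13.4 FPKM at 6 h and 10.5, 11.1 and 11.4 FPKM at 24 h, and both drugs 4.13, 8.25 and 6.63 FPKM. LDHA had the lowest change of all members at 6 h of JQ1 (log2 change of -1.63, standard error 0.18, adjusted p = 4.98e-08), and its log2 change between 6 h and 24 h of JQ1 was -0.096. At 6 h of imatinib it did not pass (-0.70). LDHB passed at neither 6 h point (-0.75 and -0.84) and fell at 24 h of imatinib (-2.46) and of JQ1 (-2.05).

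Among the tested PFKFB enzymes, PFKFB3 had the lowest log2 change in each of the 5 comparisons with DMSO, though with a pseudocount of 0.1 PFKFB4 was lower at 6 h of JQ1 (-1.15 against -1.02). PFKFB3, the form whose kinase activity most exceeds its phosphatase activity, had 9.61, 14.3 and 15.8 FPKM in DMSO. It was at 4.25, 3.89 and 4.52 FPKM after 6 h and 1.80, 1.78 and 1.77 FPKM after 24 h of imatinib. After JQ1 it was at 6.80, 5.70 and 6.57 FPKM and 2.31, 2.65 and 3.32 FPKM, and after both drugs at 1.20, 2.30 and 1.55 FPKM. The imatinib 6 h libraries lay below those of JQ1 at 6 h, and PFKFB3 fell at 6 h of imatinib (log2 change of -1.42, standard error 0.17, adjusted p = 3.25e-07) but did not pass at 6 h of JQ1 (-0.93).

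PFKFB2, the form known from heart, had 10.1, 11.2 and 13.2 FPKM in DMSO. It stood at 7.83, 7.29 and 9.07 FPKM after 6 h and 7.47, 7.97 and 7.39 FPKM after 24 h of imatinib. With JQ1 it stood at 5.98, 5.44 and 5.80 FPKM and 4.34, 5.04 and 5.61 FPKM, and with both drugs at 3.17, 5.79 and 4.08 FPKM. With imatinib its log2 changes were -0.46 and -0.53, neither past the fold, and its fall at 24 h of JQ1 (-1.06) did not hold without DMSO library 3 (-0.96) or without the unnumbered JQ1 library (-0.98). With the ratio rescaling PFKFB2 was above DMSO in all 5 comparisons (0.13 to 1.004).

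PFKFB4, a form often raised by low oxygen, had 2.91, 3.48 and 4.65 FPKM in DMSO. It had 4.08, 3.56 and 2.96 FPKM at 6 h and 1.37, 1.52 and 1.66 FPKM at 24 h of imatinib. With JQ1 it had 1.89, 1.45 and 1.42 FPKM and 1.47, 1.73 and 2.28 FPKM, and with both drugs 0.530, 0.810 and 0.669 FPKM. At 6 h of imatinib its libraries overlapped those of DMSO (-0.036, adjusted p = 0.813), and of the 5 comparisons with DMSO it passed in that with both drugs (-1.47). At levels this low the pseudocount bears on the value: with 0.1 in place of 1 it also passed at 6 h of JQ1 (-1.15) and at 24 h of imatinib (-1.20), where it passed without DMSO library 1 as well (-1.002). PFKFB1, the liver form, stayed between 0.141 and 0.393 FPKM in all libraries.

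The pyruvate dehydrogenase kinases held the member that differed most between the drugs at 6 h. PDK2, which is found in most tissues, had 17.2, 20.3 and 23.5 FPKM in DMSO. With imatinib it was at 25.5, 27.7 and 26.4 FPKM after 6 h and 17.5, 18.3 and 18.3 FPKM after 24 h. With JQ1 it was at 6.68, 6.32 and 6.57 FPKM after 6 h and 7.01, 8.75 and 9.24 FPKM after 24 h, and with both drugs at 5.05, 8.94 and 6.10 FPKM. Imatinib libraries were thus above DMSO at 6 h and within the DMSO range at 24 h, while all JQ1 libraries, with or without imatinib, were below both. The log2 change was 0.38 (standard error 0.17, adjusted p = 0.0418) at 6 h and -0.15 (adjusted p = 0.387) at 24 h of imatinib, neither past the fold. It was -1.49 (adjusted p = 5.5e-08) at 6 h of JQ1, -1.19 at 24 h of JQ1 and -1.49 with both, and PDK2 fell in these 3. After the ratio rescaling PDK2 rose with imatinib at both times, and its changes at 24 h of JQ1 and with both drugs turned to 0.38 and 0.74 and did not pass.

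PDK1, a kinase raised by low oxygen in many cells, had 8.42, 11.9 and 11.98 FPKM in DMSO. It had 6.58, 6.35 and 6.13 FPKM at 6 h and 3.78, 3.99 and 3.91 FPKM at 24 h of imatinib. With JQ1 it had 5.93, 4.51 and 5.39 FPKM and 3.40, 3.91 and 4.55 FPKM, and with both drugs 1.51, 2.68 and 2.16 FPKM. PDK1 fell at 24 h with each drug alone (log2 changes -1.25 and -1.24) and with both (-1.92) on the deposited scale, and after the ratio rescaling these were 0.24, 0.22 and 0.056. PDK3 had 14.8, 17.6 and 21.4 FPKM in DMSO. Imatinib gave 10.8, 11.1 and 13.2 FPKM at 6 h and 5.71, 6.26 and 5.78 FPKM at 24 h. JQ1 gave 9.53, 8.38 and 9.48 FPKM and 9.01, 9.77 and 11.8 FPKM, and both drugs 5.15, 9.88 and 6.32 FPKM. PDK3 fell at 24 h of imatinib (-1.44) and with both (-1.25), not at 24 h of JQ1 (-0.75), and after the ratio rescaling all 3 of these changes were above 0. PDK4, the kinase raised by fasting in muscle and liver, lay between 0.0919 and 0.125 FPKM in every library.

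**Figure D2:**
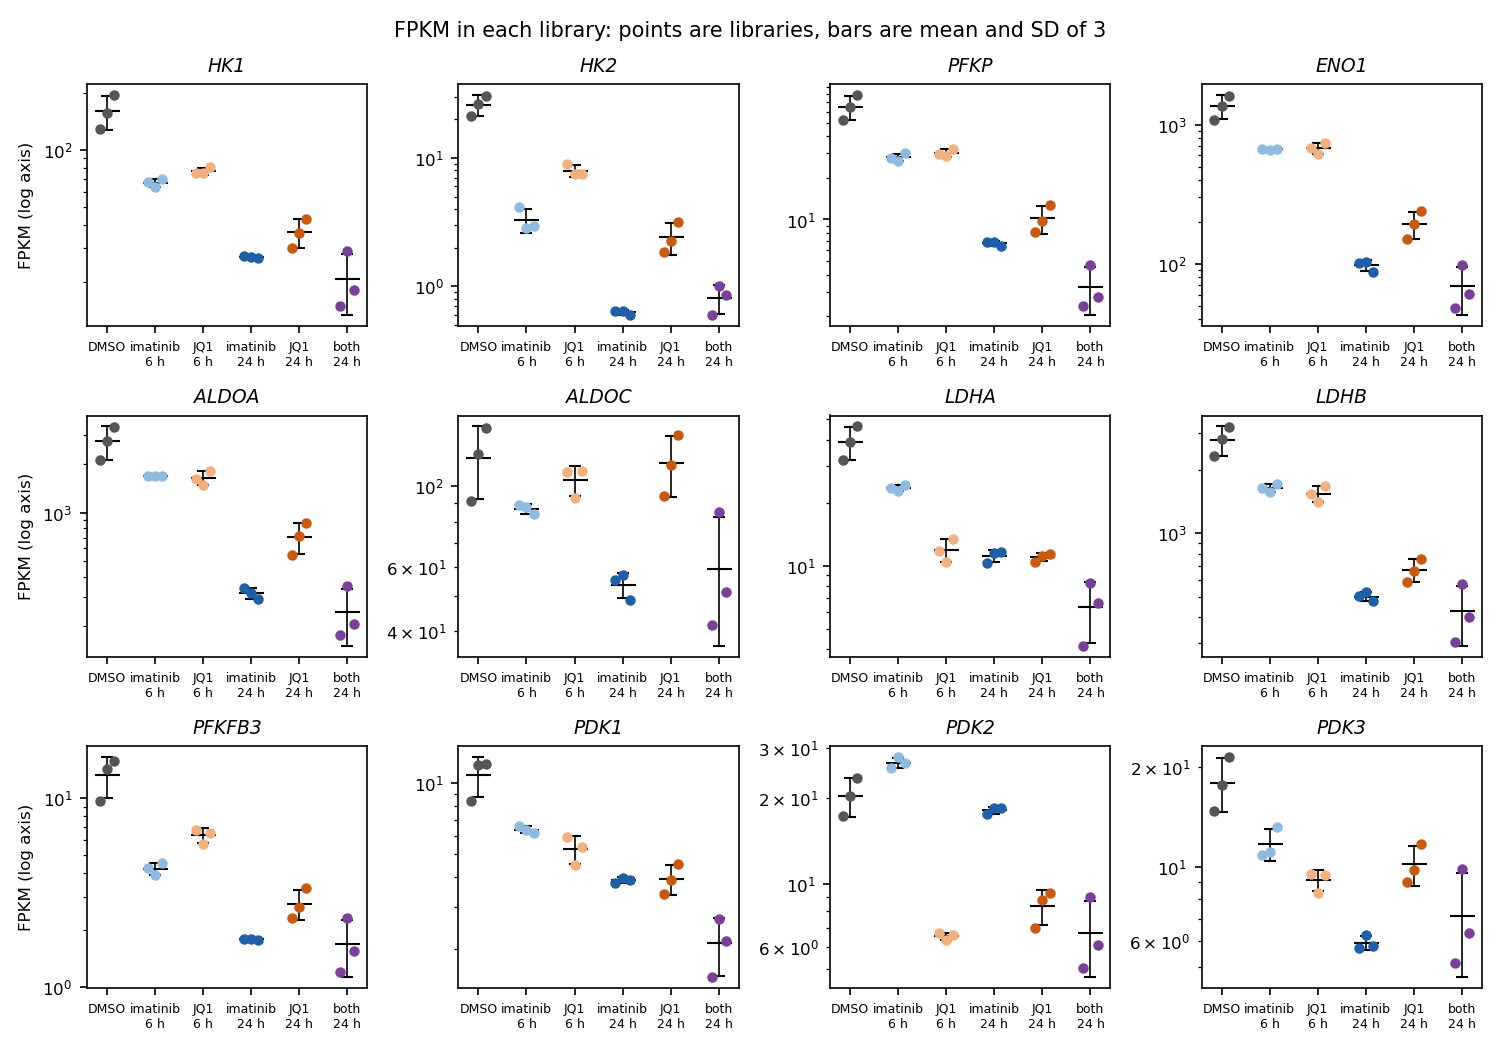
FPKM on a log axis in each of the 18 libraries for 12 members, with a point for each library and bars at the mean and SD of 3. HK2 falls from 21.2 to 30.5 FPKM in DMSO to 0.594 to 0.643 FPKM at 24 h of imatinib, while PDK2 keeps 17.5 to 18.3 FPKM there and is below 10 FPKM in every JQ1 library.

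In the side branches, PGM1 and PGM2 link glucose 6-phosphate to glycogen and to ribose phosphate, and BPGM makes 2,3-bisphosphoglycerate. PGM1 was scarce, with 2.24, 3.03 and 3.62 FPKM in DMSO. It had 2.13, 1.97 and 1.97 FPKM at 6 h and 2.35, 2.24 and 1.94 FPKM at 24 h of imatinib, which overlapped DMSO at 24 h (-0.31, adjusted p = 0.0475). With JQ1 it had 1.54, 1.14 and 1.31 FPKM and 0.979, 1.13 and 1.43 FPKM, and with both drugs, where it fell (-1.17), 0.458, 1.23 and 0.647 FPKM. PGM2 went from 41.5 ± 6.62 FPKM in DMSO to 10.3 ± 0.675, 14.5 ± 1.29 and 9.30 ± 3.002 FPKM at 24 h of imatinib, of JQ1 and of both. BPGM went from 54.1 ± 11.3 FPKM to 14.9 ± 1.60, 15.9 ± 1.65 and 10.8 ± 3.15 FPKM, and both genes fell at 24 h in each group on the deposited scale (with both drugs the rescaled change was 0.23 for PGM2 and 0.087 for BPGM, and with JQ1 0.19 for PGM2).

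The pentose phosphate members passed at 24 h in each drug group and, but for TKT with JQ1, at neither 6 h point. PGD, the second NADPH-forming enzyme of the pathway, had 219.7, 277 and 346 FPKM in DMSO. Imatinib left 174, 166 and 185 FPKM at 6 h and 64.9, 68.9 and 66.1 FPKM at 24 h. JQ1 left 199, 185 and 216 FPKM and 107, 126 and 137 FPKM, and both drugs 49.6, 96.97 and 62.5 FPKM. PGD fell at 24 h of imatinib (-2.03), of JQ1 (-1.16, and -0.996 without DMSO library 3, which did not pass) and of both (-2.03), but the rescaled changes for JQ1 and both were 0.54 and 0.39. TALDO1, the transaldolase, had 369.8 ± 88.9 FPKM in DMSO and 62.5 ± 2.06, 106 ± 14.8 and 50.4 ± 17.7 FPKM at 24 h of imatinib, JQ1 and both. TKT, which with TALDO1 carries sugar phosphates back to glycolysis, had 172 ± 40.03 FPKM in DMSO, 79.7 ± 6.74 FPKM at 6 h of JQ1, and 43.7 ± 1.31, 46.7 ± 8.80 and 26.5 ± 8.89 FPKM in the 24 h groups, and its rescaled change at 6 h of JQ1 was 0.061.

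Because isozymes of the same step fell unequally, their proportions shifted, and a proportion within a library does not depend on the scale of that library. These families were picked after their values were seen, so the shares are a description with no test, and 3 libraries against 3 could reach no exact permutation p below 0.1. HK2 made up 14.1% ± 0.425 of the HK1 and HK2 transcripts in DMSO, 4.69% ± 0.916 and 2.25% ± 0.0676 at 6 h and 24 h of imatinib, 9.41% ± 1.08 and 6.15% ± 0.586 with JQ1, and 3.89% ± 0.571 with both drugs. PFKP was 19.7% ± 0.397 of the phosphofructokinase transcripts in DMSO, 7.16% ± 0.0991 at 24 h of imatinib, 9.76% ± 0.513 at 24 h of JQ1 and 5.77% ± 0.0900 with both. The inducible hexokinase and the platelet-type phosphofructokinase thus lost share to their relatives, most with imatinib for the first and most with both drugs for the second.

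ALDOC moved the other way, from 4.13% ± 0.0895 of the aldolase transcripts in DMSO to 14.5% ± 0.686 at 24 h of imatinib, 14.04% ± 0.491 at 24 h of JQ1 and 19.6% ± 0.367 with both. LDHA was 1.39% ± 0.0315 of the lactate dehydrogenase transcripts in DMSO, 0.765% ± 0.0304 at 6 h of JQ1 and 2.19% ± 0.198 at 24 h of imatinib. PFKFB3 was 46.2% ± 3.40 of PFKFB2, PFKFB3 and PFKFB4 in DMSO and 46.4% ± 1.18 at 6 h of JQ1, where the libraries overlapped, 26.7% ± 0.552 at 6 h and 16.3% ± 0.553 at 24 h of imatinib, 28.7% ± 0.808 at 24 h of JQ1 and 24.96% ± 0.762 with both. PDK2 rose in share with imatinib, from 41.5% ± 0.958 of PDK1, PDK2 and PDK3 to 59.5% ± 1.80 at 6 h and 64.8% ± 0.628 at 24 h, and stood at 31.2% ± 1.46 and 37.1% ± 1.67 with JQ1. Of these 30 shares 26 had libraries that did not overlap those of DMSO. LDHA at 6 h of imatinib and with both drugs, PFKFB3 at 6 h of JQ1 and PDK2 with both drugs did overlap. Shares in other gene families were not counted, so the 26 have no background and are no result about these isozymes.

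**Figure D3:**
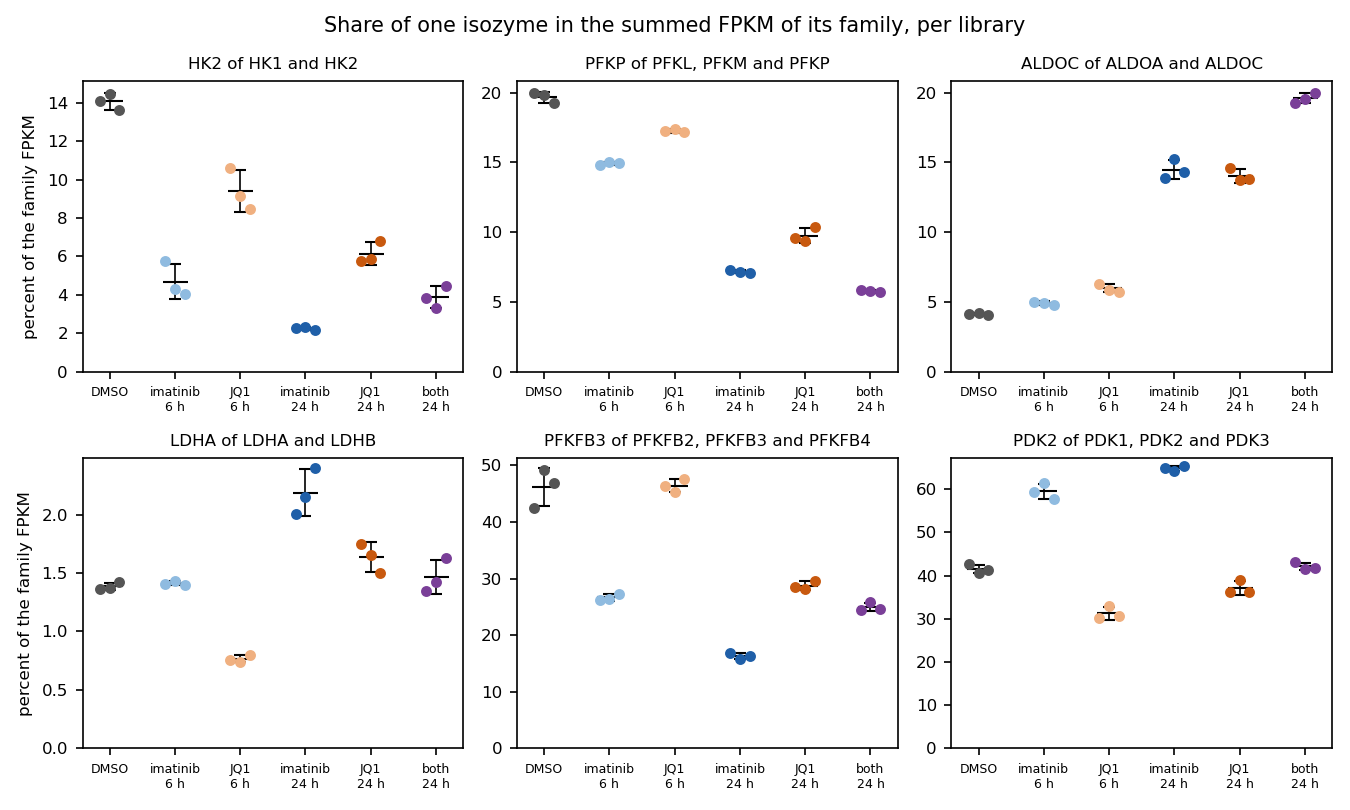
Share of a named isozyme among the transcripts of its family, in percent of their summed FPKM, with a point for each library in the 6 groups and bars at the mean and SD of 3. HK2 and PFKP drop from means of 14.1% and 19.7% in DMSO to 2.25% and 7.16% at 24 h of imatinib, and ALDOC climbs from 4.13% to 14.5%.

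Set against imatinib at the same dose and time, JQ1 left more of several glycolytic transcripts at 24 h. TPI1, GAPDH, ALDOA, ALDOC and HK2 were higher with JQ1 and PDK2 was lower, 6 of 28 members, where 3.59% of all genes were higher and 4.88% lower. TPI1 had 632 ± 105 FPKM with JQ1 and 256 ± 13.8 FPKM with imatinib (log2 change of 1.29, standard error 0.21, adjusted p = 4.26e-05). For GAPDH the change was 1.19 (adjusted p = 8.1e-05) and for ALDOA 1.14 (adjusted p = 0.000291). ALDOC, with 116 ± 22.1 against 53.6 ± 4.30 FPKM, changed by 1.08 (adjusted p = 0.000415). HK2 changed by 1.06 (adjusted p = 1.64e-05) and PDK2 by -1.04 (adjusted p = 3.65e-05).

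Over all 28 members the median of JQ1 minus imatinib at 24 h was 0.42, where that of all genes was 0.04, and 21 of 28 lay above the all-gene median. By library values 17 members had every JQ1 library above every imatinib library (all genes 33.0%) and 4 had every one below (all genes 27.6%). The ratio rescaling kept the same 6 calls, with 3.57% of genes rising and 6.09% falling. Dividing by the library total in its place left ALDOA (0.92), ALDOC (0.86) and GAPDH (0.97) short of the fold. Without JQ1 library 3, the highest of its group, HK2 (0.90), ALDOA (0.99) and ALDOC (0.94) did not pass, and without the unnumbered library PDK2 (-0.93) did not, while PGK1 (1.11) and ENO1 (1.13) did.

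After 6 h HK2 and PDK2 differed between the drugs. HK2 was higher with JQ1 (log2 change of 1.07, standard error 0.16, adjusted p = 1.04e-05) and PDK2 lower (log2 change of -1.87, standard error 0.17, adjusted p = 9.02e-09), with 1.95% of all genes higher and 9.36% lower. Both remained called after the ratio rescaling (1.31 and -1.501), where the background was 3.43% and 3.30%. HK2 passed narrowly on the deposited scale and did not without imatinib library 2 or JQ1 library 1 (0.9964 in each case). LDHA, lower with JQ1 by library values (11.9 against 23.5 FPKM), had a change of -0.93 and was not called, though it was without JQ1 library 3 (-1.02). The member median was -0.086 and the all-gene median -0.30.

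**Figure D4:**
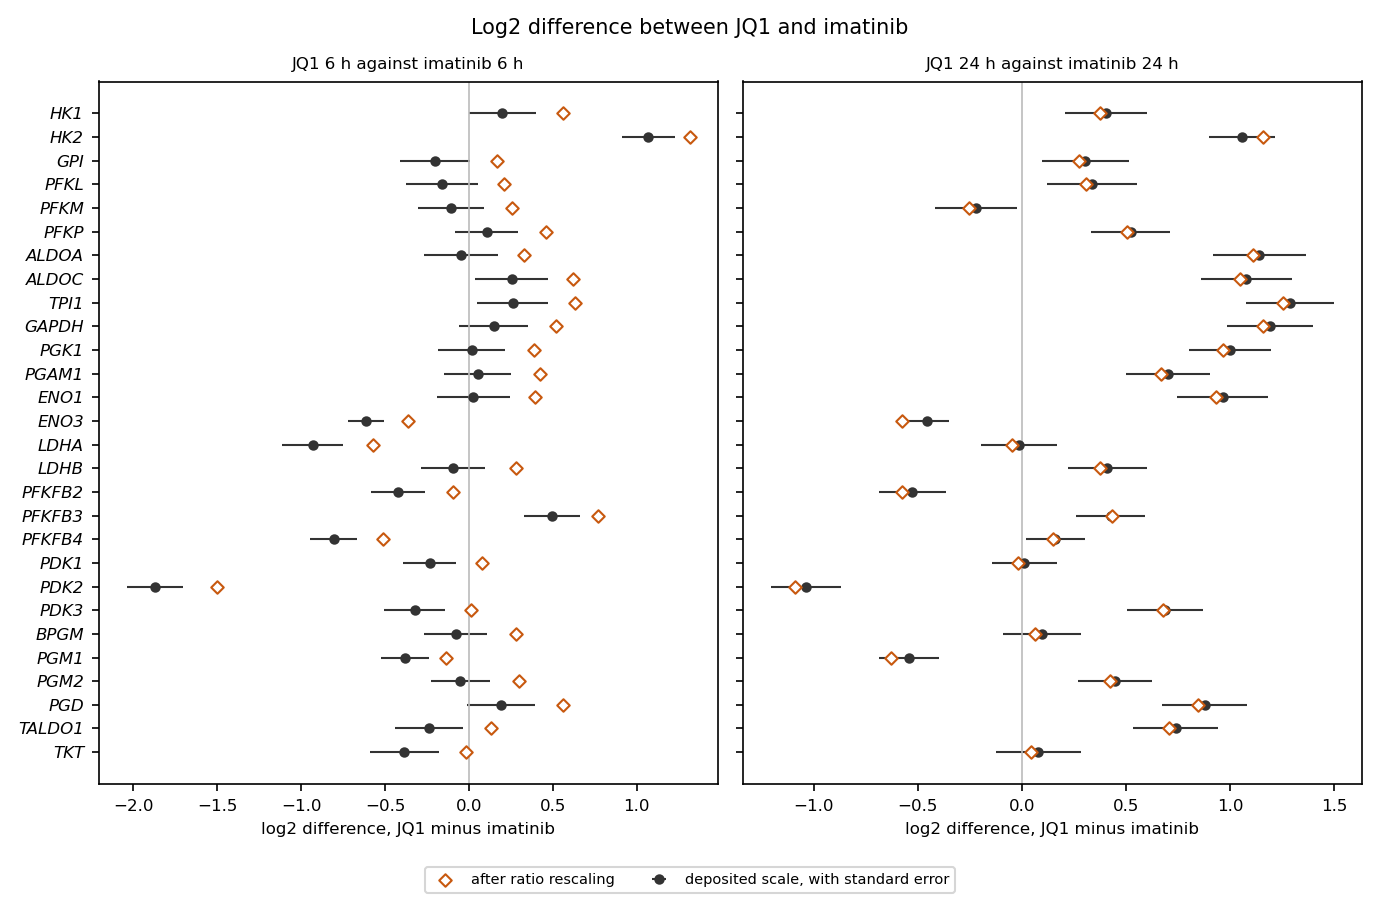
Log2 change of JQ1 against imatinib at the same time for each tested member, with 6 h and 24 h in separate panels, filled points with bars of 1 standard error for the deposited scale and open diamonds after the ratio rescaling. PDK2 is the lowest member at both times (-1.87 and -1.04) and TPI1 the highest at 24 h (1.29).

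Adding JQ1 to imatinib for 24 h lowered 2 members below imatinib alone, GPI (log2 change of -1.01, standard error 0.21, adjusted p = 0.000342) and PDK2 (log2 change of -1.34, standard error 0.17, adjusted p = 7.91e-07). Among all genes 14.5% fell and 0.423% rose, so the members' share was below the background. GPI did not pass without imatinib library 1 (-0.99) or combination library 1 (-0.83) or 3 (-0.92). Without combination library 2, the highest of its group, the count was 6. All genes called in this comparison numbered 1912 with every library and 1421 to 2910 with a library left out. The all-gene share without combination library 2 is not given here, so the 6 is no result about the members. With every library the members' median was -0.51 and that of all genes -0.499. HK2 libraries with both drugs (mean 0.818 FPKM) overlapped those with imatinib alone (0.625 FPKM), with a change of 0.16 (adjusted p = 0.394). After the ratio rescaling 0 members passed, where 5.58% of genes fell.

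Adding imatinib to JQ1 lowered 9 of 28 members below JQ1 alone, where 7.35% of all genes fell and 0.0470% rose. The largest were ALDOA (log2 change of -1.59, standard error 0.22, adjusted p = 1.87e-05), ENO1 (-1.52), PGAM1 (-1.47) and PFKP (-1.41). The others were GPI, TPI1, GAPDH, PGK1 and TALDO1, so 6 of the 8 tested enzymes from aldolase to enolase were in the list. The member median of -0.83 lay below the -0.54 of all genes, with 22 of 28 members under it. The ratio rescaling left 0 members called (0.814% of genes fell), and the lowest value was then -0.86. GAPDH did not pass without JQ1 library 3 (-0.96) or combination library 1 (-0.88), and neither did TALDO1 (-0.997 and -0.91). Without combination library 2 the count was 14. All genes called in this comparison numbered 945 with every library and 465 to 2367 with a library left out. The all-gene share without combination library 2 is not given here, so the 14 is no result about the members.

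Between 6 h and 24 h of imatinib 18 of 28 members fell and 0 rose, where 33.4% of all genes fell and 0.501% rose. ENO1 fell most (log2 change of -2.75, standard error 0.22, adjusted p = 7.18e-10), followed by ALDOA (-2.41), PGK1 (-2.14) and PGAM1 (-1.98). HK2, which had fallen furthest by 6 h, went from 3.30 to 0.625 FPKM, a change of -1.39. The member median was -1.19 and that of all genes -0.77. After the ratio rescaling PFKP, ALDOA, PGK1, PGAM1 and ENO1 still fell (-1.80 for ENO1), with 4.38% of genes falling. PFKL (-0.9991), LDHA (-0.99) and PGM2 (-0.95) did not pass without imatinib 6 h library 3, and LDHA and PGM2 (both -0.96) did not without imatinib 24 h library 1.

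Between 6 h and 24 h of JQ1 9 of 28 fell, with 14.2% of all genes falling and 0.509% rising. The largest were ENO1 (log2 change of -1.82, standard error 0.22, adjusted p = 6.71e-07), PFKP (-1.49), HK2 (-1.41) and GPI (-1.36). LDHA stood at 11.9 FPKM at 6 h and 11.01 FPKM at 24 h (-0.096, adjusted p = 0.659), and PDK2 at 6.52 and 8.33 FPKM (0.30, adjusted p = 0.122). The medians were -0.79 for the members and -0.45 for all genes, and after the ratio rescaling ENO1 alone passed (-1.26), with 3.45% of genes falling. HK1 did not pass without the unnumbered JQ1 library (-0.94), and the count was 13 without JQ1 24 h library 3. All genes called in this comparison numbered 1878 with every library and 1546 to 2340 with a library left out. The all-gene share without JQ1 24 h library 3 is not given here, so the 13 is no result about the members.

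For most tested members the log2 change with both drugs fell short of the sum of the changes with each. The interaction, the change with both minus the changes with each drug alone on the log2 scale, was above 0 and passed for 18 of 28 members and below 0 for 0, where 46.8% of all genes passed above 0 and 0.932% below. ENO1 had an interaction of 2.24 (standard error 0.31, adjusted p = 2.5e-06), LDHB of 1.77 and PFKFB3 of 1.83. For HK2, at 0.625 FPKM with imatinib alone, it was 3.14. The scale sets part of this: log2(FPKM + 1) cannot go below 0, so a gene that nears 0 with 1 drug cannot fall as far again. From the DMSO level and the single-drug changes, the interaction of HK2 could not be below 2.29, that of ENO3 not below 0.90 and that of PFKFB3 not below 0.43. The call and rank of HK2 are thus no evidence on the combination, and the calls of ENO3 (1.05) and PFKFB3 are partly set in the same way. For the other 15 called members the least value that the scale allows was below 0. The median was 1.25 for the members and 0.95 for all genes. After the ratio rescaling ENO1 (1.22) and HK2 (2.05, where the least value allowed was 0.59) were still called above 0 and PDK2 was called below 0 (-1.12), with 4.88% of genes above and 5.83% below. ENO3 (0.94) and TKT (0.93) did not pass without DMSO library 3, nor without the unnumbered JQ1 library (0.99 and 0.97), and PGD (0.90) and TKT (0.85) did not without combination library 2.

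**Figure D5:**
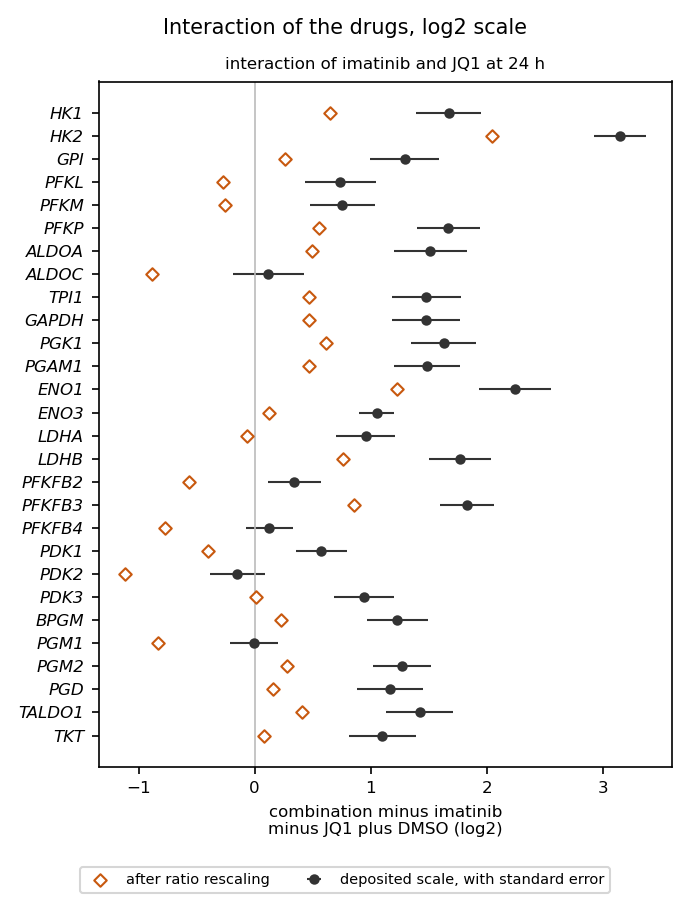
Interaction of imatinib and JQ1 at 24 h for each tested member on the log2 scale, with filled points and bars of 1 standard error for the deposited scale and open diamonds after the ratio rescaling. HK2 lies furthest to the right on both (3.14 and 2.05), a place that the floor of the scale sets in part (at least 2.29 and 0.59), and PDK2 lies furthest to the left (-0.15 and -1.12).

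Genes next to the set in the pathway were counted in the same way. In the order imatinib 6 h, JQ1 6 h, imatinib 24 h, JQ1 24 h and both, the other glycolysis enzymes fell in 2, 2, 6, 7 and 7 of 8 tested genes (of 18 listed) and 0 rose, where 20.0%, 49.8%, 72.1%, 75.3% and 86.0% of all genes fell. After the ratio rescaling 0, 0, 2, 1 and 2 fell and 0, 0, 2, 0 and 0 rose, FBP1 (1.22) among the latter. Of all genes 2.08%, 2.57%, 8.72%, 6.47% and 10.1% then fell and 1.22%, 2.47%, 8.80%, 5.25% and 9.17% rose. Among the other glycolysis enzymes PKM, the pyruvate kinase of tumours, went from 1325 ± 277 FPKM in DMSO to 216 ± 18.3 FPKM at 24 h of imatinib (-2.59) and 403 ± 70.3 FPKM at 24 h of JQ1 (-1.71). C12orf5, also called TIGAR, which breaks down fructose 2,6-bisphosphate, fell at 6 h and 24 h of imatinib (-1.73 and -3.20), and the latter was still called after the ratio rescaling (-1.74). The other pentose phosphate enzymes fell in 1, 5, 6, 7 and 8 of 9 tested genes (of 11), with PRPS1, which makes the ribose donor of nucleotide synthesis, at -2.86 at 24 h of imatinib and -3.28 with both. Again 0 rose. Rescaled, 0, 0, 1, 0 and 0 of the 9 fell and 0, 0, 2, 1 and 1 rose, H6PD in each 24 h group, beside the same rescaled all-gene shares.

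Of the carriers of glucose, lactate and pyruvate, 2, 4, 8, 9 and 9 of 10 tested (of 17) fell in the same order and 0 rose, beside the same all-gene shares. The ratio rescaling left 0, 0, 1, 0 and 1 falling and 0, 2, 1, 1 and 1 rising, beside the rescaled all-gene shares given above. SLC2A1, the glucose transporter GLUT1, went from 60.01 ± 13.7 FPKM in DMSO to 25.5 ± 1.498 FPKM at 6 h and 6.17 ± 0.0653 FPKM at 24 h of imatinib (-1.18 and -3.06), and to 15.1 ± 3.04 FPKM at 24 h of JQ1 (-1.91). SLC16A3, the lactate exporter MCT4, had 8.53 ± 2.02 FPKM in DMSO, 10.8 ± 0.393 FPKM at 24 h of imatinib (0.32, adjusted p = 0.0704), 1.92 ± 0.477 FPKM at 24 h of JQ1 (-1.69) and 0.767 ± 0.337 FPKM with both (-2.42). SLC16A3 rose at 24 h of imatinib once the ratio rescaling was applied (1.82). All 8 genes of the pyruvate dehydrogenase complex and its phosphatases fell in each 24 h group, beside the 72.1%, 75.3% and 86.0% of all genes. After the ratio rescaling 1 of the 8 still fell in each, beside 8.72%, 6.47% and 10.1% of all genes. DLAT, the acetyltransferase core, was lowest (-2.76, -2.67 and -3.49 with imatinib, JQ1 and both). PDHA1, the subunit that the PDK kinases act on, was at -1.98, -1.95 and -2.66 in the same comparisons.

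Transcription factors known to act on glycolysis genes fell in 4, 6, 7, 8 and 9 of 13 tested (of 15) and 0 rose, a smaller share than that of all genes in each 24 h group. After the ratio rescaling, beside the rescaled all-gene shares given above, 1 fell in each comparison and 1, 0, 3, 2 and 2 rose, FOXO3 in 4 of the 5. The 1 that fell was MYCN. MYCN, a MYC family factor, had 133 ± 31.2 FPKM in DMSO, 6.29 ± 0.781 FPKM at 6 h and 1.77 ± 0.179 FPKM at 24 h of imatinib, 11.7 ± 0.760 and 3.66 ± 0.529 FPKM with JQ1 and 0.709 ± 0.256 FPKM with both. Its log2 changes in that order were -4.18, -5.57, -3.37, -4.82 and -6.28, and it stayed called in all 5 comparisons after either rescaling. HIF1A, which drives glycolysis under low oxygen, fell at 24 h (-1.99 with imatinib and -1.49 with JQ1) beside all-gene medians of -1.503 and -1.49, and after the ratio rescaling was at -0.29 and 0.18. Targets of HIF outside glycolysis fell in 1, 2, 9, 6 and 10 of 15 tested (of 17), below the share of all genes in each comparison, and NDRG1 rose at 6 h of imatinib (1.07). Their medians lay above the all-gene median (-1.15 at 24 h of imatinib and -0.85 at 24 h of JQ1). After the ratio rescaling 0 of the 15 fell and 4, 2, 4, 5 and 5 rose, where 1.22%, 2.47%, 8.80%, 5.25% and 9.17% of all genes rose. VEGFA, the angiogenic factor, was the lowest of the list at 24 h of imatinib (-2.29) and of JQ1 (-1.75). Whether any of these factors bears on the enzymes was not tested.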

How the data were processed

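RNA was measured in 18 libraries of GIST-T1 in 6 groups of 3, as the labels give them. The authors deposited FPKM values, 1 column per library, from stranded poly(A) libraries read as single-end reads of 75 bases. STAR, Cufflinks and hg19 are named per the submitters' processing notes, without versions, and no normalization step is given in the sources used here. Depth is unknown. The table holds 23713 rows (23621 genes, 92 ERCC spike-ins), and 0 columns lacked a label.

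The 12771 tested genes reached 1 FPKM in at least 3 libraries. limma (3.58.1, R 4.3.3) was fitted to log2(FPKM + 1) over all libraries with a mean per group and an intensity trend (12 residual degrees of freedom). The two-sided p-values were adjusted over all tested genes within each of 12 comparisons. The script was tested on simulated data. Members, lists and comparisons were chosen with earlier results of these data known. Library values are printed for the 3 highest and 3 lowest members of each comparison with DMSO, for HK2, LDHA, LDHB and the PDK and PFKFB genes. Other comparisons name at most 4 called members in each direction in full, and non-members come from listed genes, at most 4 per list. Rescaled values divide each library by its median ratio to the mean library, or by its total without the MIR1244 rows. Other alternatives were a pseudocount of 0.1, no filter, the compared groups only, a replicate block and leaving out each library. Deviations from the group means, correlated across genes, were little shared by same-numbered libraries (40 pairs, r between -0.24 and 0.19, 4 above 0.1). The numbers were not used as pairs. Such a correlation cannot see a shift common to all genes of a library, so pairing in overall scale was not tested. Promoters are RefSeq windows on GRCh38.p14.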

Additional observations from a re-analysis of the deposited data

Results flagged for a closer look

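The interaction test asks whether the effect of JQ1 at 24 h differed between cells with and without imatinib. In the limma fit on the deposited scale it called 18 members. In all 18 the fall with both drugs was smaller than the sum of the single falls. The values were 3.14 for HK2 and 2.24 for ENO1, the only members of the 18 that were still called after either rescaling. The value of HK2 is no evidence of such a difference, since the floor of the log2(FPKM + 1) scale kept it at or above 2.29, and those of ENO3 and PFKFB3 could not be below 0.90 and 0.43. For the rest they were 1.67 for HK1, 1.29 for GPI, 1.67 for PFKP, 1.51 for ALDOA, 1.48 for TPI1, 1.48 for GAPDH, 1.63 for PGK1, 1.48 for PGAM1, 1.05 for ENO3, 1.77 for LDHB, 1.83 for PFKFB3, 1.23 for BPGM, 1.27 for PGM2, 1.17 for PGD, 1.42 for TALDO1 and 1.10 for TKT. The median of all tested genes was 0.95 on the same scale, so 18 of 28 members stand beside 46.8% of all genes.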

How the results depend on the processing

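Of the 336 single-gene values (28 members in 12 comparisons), all kept direction and side of the threshold without the filter and in fits of the compared groups only, and 312 did with a pseudocount of 0.1, where 24 more passed. That pseudocount gave 11 called members at 6 h of JQ1, 6 for the combination against imatinib and 4 for JQ1 against imatinib at 6 h. The share of all genes called with it is not given here, so these counts are no result about the members. The rescalings changed most. The ratio rescaling ended 120 of 152 calls, 92 with the sign kept and 28 with the other sign, and the total rescaling ended 125, 102 and 23 of them. Of all 336 values 120 had the other sign under the ratio rescaling, of which 31 were called on either scale and 89 on neither. The total rescaling gave 99, 26 and 73. For imatinib 6 h against DMSO 18 (ratio) and 16 (total) of 28 values turned, all called on neither scale. Called members under the ratio and the total rescaling were 2 and 2 at 6 h of imatinib, 0 and 0 at 6 h of JQ1, 9 and 8 at 24 h of imatinib, 3 and 4 at 24 h of JQ1, 7 and 7 with both drugs, 0 and 0 for the combination against imatinib and against JQ1, 5 and 3 between the times of imatinib, 1 and 1 between those of JQ1, and 3 and 3 for the interaction. For JQ1 against imatinib at 24 h the total rescaling left 3. These rescalings remove the common shift by construction. All-gene shares under the total rescaling are not given here, so its counts are no result about the members.

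The log2 changes below, called on either scale, turned across 0 under the ratio rescaling, and those given for a drug group are against DMSO. JQ1 6 h gave HK1 0.11, PFKP 0.059 and TKT 0.061. Imatinib 24 h gave PFKL 0.014, PFKM 0.31, ALDOC 0.60, PFKFB2 1.004, PDK1 0.24, PDK2 1.47 and PDK3 0.14. JQ1 24 h gave PFKL 0.32, PFKM 0.054, ALDOC 1.65, TPI1 0.23, GAPDH 0.33, PFKFB2 0.43, PDK1 0.22, PDK2 0.38, PGM2 0.19 and PGD 0.54. The combination gave PFKL 0.056, PFKM 0.11, ALDOC 1.37, PFKFB2 0.86, PDK1 0.056, PDK2 0.74, PDK3 0.97, BPGM 0.087, PGM1 0.24, PGM2 0.23 and PGD 0.39. Fewer turned under the total rescaling. Imatinib 24 h gave PFKL 0.086, PFKM 0.38, ALDOC 0.67, LDHA 0.019, PFKFB2 1.08, PDK1 0.30, PDK2 1.55 and PDK3 0.21. JQ1 24 h gave PFKL 0.21, ALDOC 1.54, TPI1 0.12, GAPDH 0.22, PFKFB2 0.33, PDK1 0.13, PDK2 0.28, PGM2 0.078 and PGD 0.43. The combination gave ALDOC 1.22, PFKFB2 0.73, PDK2 0.60, PDK3 0.84, PGM1 0.16, PGM2 0.087 and PGD 0.24. Imatinib 24 h against 6 h gave PFKL 0.00996. The interaction gave TKT -0.025.

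With the replicate block, which drops the unnumbered JQ1 library, the combination against JQ1 had 12 called members in place of 9, JQ1 against imatinib at 24 h had 7 in place of 6, and the interaction 19 in place of 18. It added 6 single-gene calls and ended that of PDK2 for JQ1 against imatinib at 24 h (-0.99). All-gene shares with the block are not given here, so its counts are no result about the members. Leaving out a library kept the call of 5964 single-gene values, ended 40 calls and added 44. The counts of called members then ranged from 4 to 7 at 6 h of imatinib, 3 to 16 at 6 h of JQ1, 23 to 25 at 24 h of imatinib, 22 to 24 at 24 h of JQ1, 27 to 28 with both drugs, 1 to 6 for the combination against imatinib, 7 to 14 for the combination against JQ1, 1 to 3 for JQ1 against imatinib at 6 h, 3 to 8 for JQ1 against imatinib at 24 h, 15 to 18 between the times of imatinib, 8 to 13 between those of JQ1 and 16 to 20 for the interaction. The counts of all genes called moved too. They ranged from 1675 to 4011 at 6 h of imatinib and from 5092 to 7940 at 6 h of JQ1. The range was 465 to 2367 for the combination against JQ1, but 1069 to 1130 for JQ1 against imatinib at 24 h. All-gene shares for each library left out are not given here, so these member counts are no result about the members. Precision rests on the spread of 3 libraries, since depth is unknown, and members under a few FPKM lean on the pseudocount.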
